A study of Mus musculus with 2 samples.

Results

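Tiles already highly methylated in *Rex1*-high cells are described here, from reduced representation bisulfite sequencing (RRBS) of 2 sorted cell populations, *Rex1*-high and *Rex1*-low, with 1 library each. A tile is a window of 2500 bp, and it counted as highly methylated when its mean CpG methylation was at least 80% in the *Rex1*-high library. This rule chose 1780 of the 121150 autosomal tiles that could be compared (1.47%). Both libraries came from the same E14 mouse embryonic stem cell (ESC) line of 129/Ola background, grown on gelatin with LIF and 10% serum. The line carries a knockin of destabilised GFP at the *Rex1* locus (Rex1-dGFP), and the cells were separated by GFP, *Rex1* being a marker gene of the naive pluripotent state. No replicates were available for either population, so differences are between these libraries rather than between the states. The sorted identity cannot be checked against marker genes in DNA methylation data.

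In mammalian DNA, methyl groups sit mainly on the cytosine of CpG dinucleotides. Most CpGs of CpG-poor sequence are methylated in differentiated cells, whereas CpG islands, the dense clusters at many promoters, usually stay free of it. Dnmt1 copies methylation after replication, Dnmt3a and Dnmt3b add it at new sites, and Tet enzymes oxidise it as a step towards removal. ESCs kept in serum hold methylation at levels closer to those of differentiated cells than ESCs kept in 2i do, and their *Rex1*-low fraction lies nearer to the primed state that precedes differentiation.

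RRBS reads DNA fragments cut at MspI and TaqI sites, both of which contain a CpG, after bisulfite has converted unmethylated cytosines. On the autosomes, 58985436 calls were listed for *Rex1*-high and 59901988 for *Rex1*-low. Rows of calls with 5 or more reads were kept, the level of a CpG was the mean over its kept rows, and CpGs with a kept row in both libraries were compared. A tile needed 3 or more such CpGs and 50 or more kept calls at these shared CpGs in each library, which left the 121150 tiles out of 158677 with enough CpGs. The call minimum removed another 2253 tiles that also stood at 80% or more in *Rex1*-high, so the 1780 are the better covered of 4033 tiles. Positions are 1-based in mm9, the build named in the submitters' processing notes. Gene annotation and DNA sequence of the tiles were not analysed here.

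High methylation was the edge of the *Rex1*-high distribution rather than a peak of its own. In that library the fullest 5-point bin was 60% to 65%, with 16964 tiles, and the numbers then dropped to 9302 at 70% to 75%, 4512 at 75% to 80%, 1435 at 80% to 85% and 303 at 85% to 90%. Only 42 tiles stood at 90% or more, and the highest was at 96.8%. Among the 1780 tiles, 839 (47.1%) lay between 80% and 82%. These values chose the tiles and are given as a description.

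**Figure D1:**
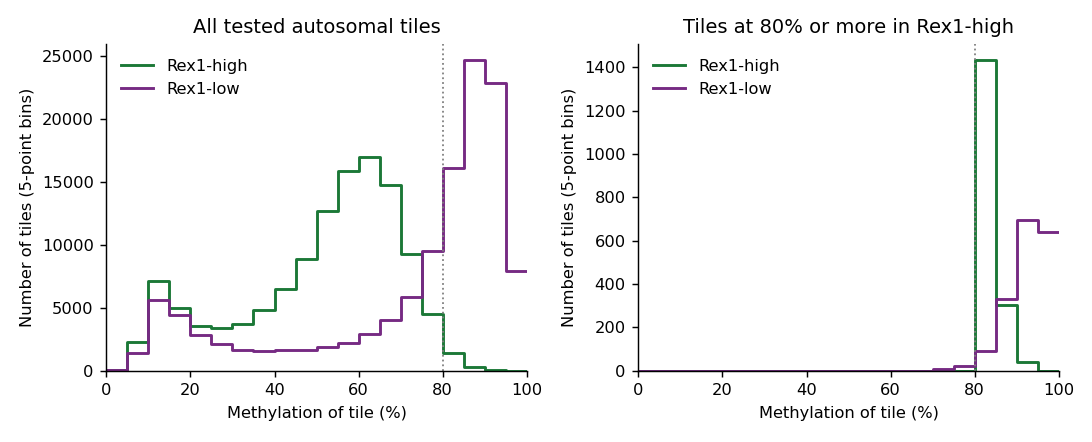
Number of tiles in 5-point bins of methylation (%) in the *Rex1*-high (green) and *Rex1*-low (purple) library, for all 121150 tested autosomal tiles (left) and for the 1780 tiles at 80% or more in *Rex1*-high (right); the dotted line marks 80%. The highly methylated tiles are the falling edge of the *Rex1*-high distribution, with 1435 of them under 85%, and in *Rex1*-low 1331 of them are at 90% or more.

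With calls pooled over a tile, few of these tiles stood above the limit with certainty. The median highly methylated tile had 91 calls in *Rex1*-high and 76 in *Rex1*-low, against 160 and 130 for all tested tiles. The half-width of the 95% Wilson interval (over all calls of a tile) was 7.90 points at the median in *Rex1*-high and 5.43 points in *Rex1*-low. Its lower bound reached 80% in *Rex1*-high in 47 tiles, and stayed under 80% in the other 1733 (97.4%). In *Rex1*-low, which was not used to choose the tiles, the lower bound reached 80% in 1541 tiles (86.6%). The share of other tiles whose lower bound did so is not given here. By the level itself, 98.3% of the highly methylated tiles were at 80% or more in *Rex1*-low. The same held for 96.5% of tiles of 70% to 80% in *Rex1*-high and 59.2% of all tested tiles, so this is not particular to the tiles chosen. The intervals cover counting error only, because reads from PCR are not independent molecules. With calls pooled over a tile in place of the mean over CpGs, 724 of the 1780 tiles were under 80% in *Rex1*-high. In these 724 the lower bound was under 80% whatever the depth.

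The limit itself fell among tiles of nearly equal level. Of the 6 tiles at exactly 80% in *Rex1*-high, the first 3 in chromosome order were at 78.9%, 100% and 89.2% in *Rex1*-low. The 3 tiles just outside it were at 80% after rounding, and were at 95.1%, 83.3% and 96.8% in *Rex1*-low.

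In the *Rex1*-low library these tiles were close to fully methylated. Their median level was 93.3%, with quartiles of 89.9% and 96.1%, against 83.7% for all tested tiles. At 90% or more stood 1331 of them (74.8%), beside 62.9% of tiles of 70% to 80% in *Rex1*-high and 25.4% of all tested tiles. At exactly 100% stood 60 (3.37%), beside 0.347% of all tested tiles, and 30 (1.69%) were under 80%. The tiles that were at 70% to 80% in *Rex1*-high reached a *Rex1*-low median of 91.6% (quartiles 88.1% and 94.5%), and those at 60% to 70% reached 89.1% (85.2% and 92.4%). Thus the order of these 3 classes, whose *Rex1*-high medians were 82.2%, 73.4% and 64.7%, was kept in *Rex1*-low at closer distances. Across the 1780 tiles themselves, Spearman's rho between the levels of both libraries was 0.0811, whereas over the 89740 tested tiles of 3 to 9 CpGs it was 0.650. Both values are descriptions across tiles of 2 libraries, and the first is taken over a range narrowed by the choice of tiles.

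High methylation in *Rex1*-low was far more common than in *Rex1*-high. At 80% or more in *Rex1*-low stood 71669 tested tiles, of which 2.44% were also at 80% or more in *Rex1*-high. Both libraries were at 90% or more in 33 tiles.

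The difference between the libraries was smaller in these tiles than in each class from 20% to 80%, and larger than in tiles under 20%. The median difference, *Rex1*-low minus *Rex1*-high, was 10.2 points, with quartiles of 6.73 and 13.5 points. It was 17.7 points for tiles of 70% to 80%, 24.1 points for 60% to 70%, 29.4 points for 50% to 60%, 31.0 points for 40% to 50% and 16.5 points for 20% to 40%, and was 1.80 points for tiles under 20%. A tile at 82.2% has 17.8 points left to full methylation, so the size of a gain is bounded. Stated as unmethylated CpGs, the median level was 17.8% in *Rex1*-high and 6.66% in *Rex1*-low for the highly methylated tiles, 26.6% and 8.36% for tiles of 70% to 80%, and 35.3% and 10.9% for tiles of 60% to 70%.

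**Figure D2:**
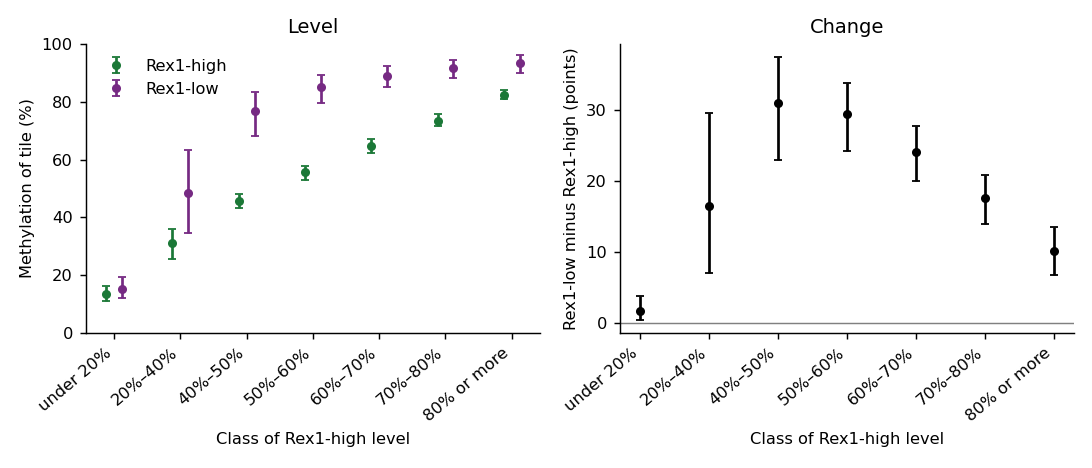
Median methylation of tiles (%, left; green *Rex1*-high, purple *Rex1*-low) and median difference in points (right) by class of *Rex1*-high level, over all tested autosomal tiles; bars are quartiles across tiles. The *Rex1*-low level climbs little above the class of 60% to 70%, from 89.1% to 93.3%, and the difference narrows from 31.0 points at 40% to 50% to 10.2 points at 80% or more.

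*Rex1*-low was higher in 1692 of the 1780 tiles (95.1%), beside 96.7% of all tested tiles and 98.5% of those with 3 to 9 CpGs. It was higher by 10 or more points in 914 tiles (51.3%), beside 80.6% of all tested tiles and 91.8% of those with 3 to 9 CpGs. In 603 tiles (33.9%) the intervals of both libraries were also apart, beside 73.2% of all tested tiles and 82.4% of those with 3 to 9 CpGs. *Rex1*-low was lower by 10 or more points in 9 tiles (0.506%), beside 0.13% of all tested tiles and 0.166% of those with 3 to 9 CpGs. The intervals were apart in 1 of these 9, beside 0.00908% of all tested tiles and 0.0123% of those with 3 to 9 CpGs. The *Rex1*-high values that chose the tiles enter each of these differences, so nothing is read from the counts. The same holds for the difference by level, which is given as a description. The median difference was 11.2 points in the 1435 tiles of 80% to 85%, 7.0 points in the 303 tiles of 85% to 90% and 2.35 points in the 42 tiles of 90% or more, whose *Rex1*-low medians were 93.2%, 94.1% and 93.4%. Their median numbers of calls in *Rex1*-high were 95, 83 and 66.5.

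Because the *Rex1*-high level both chose the tiles and enters the difference, the choice was repeated on every other CpG of a tile and the level was read from the CpGs between them. Among the 65495 tested tiles with 6 or more CpGs, 1132 were at 80% or more on their 1st, 3rd and further odd CpGs, at a mean of 83.2%. On the CpGs not used for the choice, the same tiles had a mean of 64.9% in *Rex1*-high and 87.1% in *Rex1*-low, a mean difference of 22.2 points. On these CpGs, 96 of them (8.48%) were again at 80% or more in *Rex1*-high, beside 3.4% of tiles chosen at 70% to 80% and 1.15% of all 65495 tiles. Choosing on the even CpGs gave 755 tiles, with 66.6% in *Rex1*-high and 88.2% in *Rex1*-low on the others, and 96 (12.7%) again at 80% or more, beside 1.73% of all.

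On the CpGs not used for the choice, the tiles stood well above the average of all 65495, which was 42.1% for the even and 45.3% for the odd CpGs in *Rex1*-high, and closer to the classes next to them. Tiles of 70% to 80% on the odd CpGs had 61.8% in *Rex1*-high and 86.6% in *Rex1*-low on the even ones, against 58.3% and 85.2% for tiles of 60% to 70%. With the choice on even CpGs, tiles of 70% to 80% had 65.6% and tiles of 60% to 70% had 62.3% in *Rex1*-high on the odd ones. Over tiles of 3 or more CpGs, 6817 were chosen on odd and 3717 on even CpGs. Their means in *Rex1*-high on the CpGs not used were 60.2% and 66.3%. All 121150 tested tiles had means of 46.5% on the even and 53.7% on the odd CpGs, so the 2 sets of CpGs differed in level. The median difference of the chosen tiles was then 25 and 21.0 points, beside 24.4 and 20.9 points for all tested tiles on the same CpGs. It was 10.2 points for the 1780 tiles. Tiles of 70% to 80% by the same choices had 57.1% and 66.4% in *Rex1*-high on the CpGs not used. With the choice on even CpGs, they were thus not under the tiles chosen at 80% or more. In tiles of 3 CpGs each choice rests on very few CpGs. Levels of 80% or more in *Rex1*-high thus carried over only in part from one set of CpGs to those between them. These values also hold the difference in level between odd and even CpGs, which was not separated.

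High methylation was more frequent in tiles with few CpGs. The highly methylated tiles and those of 70% to 80% had a median of 4 CpGs, tiles of 60% to 70% had 5 and all tested tiles had 6, and the most CpGs in any highly methylated tile was 12. Tiles with 3 CpGs were highly methylated in 719 of 18484 cases (3.89%), tiles with 4 in 501 of 20150 (2.49%), tiles with 5 in 290 of 17021 (1.70%) and tiles with 9 in 20 of 5075 (0.394%). Tiles of 10 to 19 CpGs gave 12 of 16943 (0.0708%, 95% Wilson interval 0.0405% to 0.124%). No tile of 20 to 39 CpGs was at 80% or more among 7226 (upper bound of the 95% Wilson interval 0.0531%). None of 40 or more CpGs was among 7241 (upper bound 0.0530%). The highest levels in these denser classes were 79.7% and 75.8%. In *Rex1*-low, 478 tiles of 20 to 39 CpGs (6.62%) and 14 of 40 or more (0.193%) were at 80% or more.

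Tiles with few CpGs had higher levels with a smaller spread across tiles. The median *Rex1*-high level was 62.5% at 3 CpGs and 54.6% at 9, with an SD across tiles of 12.3 and 14.8 points. Tiles of 3 to 4 CpGs made up 68.5% of the highly methylated tiles and 31.9% of all tested tiles. The CpG number made little difference to what the highly methylated tiles did in *Rex1*-low, where their median was 93.8% at 3 CpGs and 92.7% at 9, with median differences of 10.1 and 10.9 points.

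**Figure D3:**
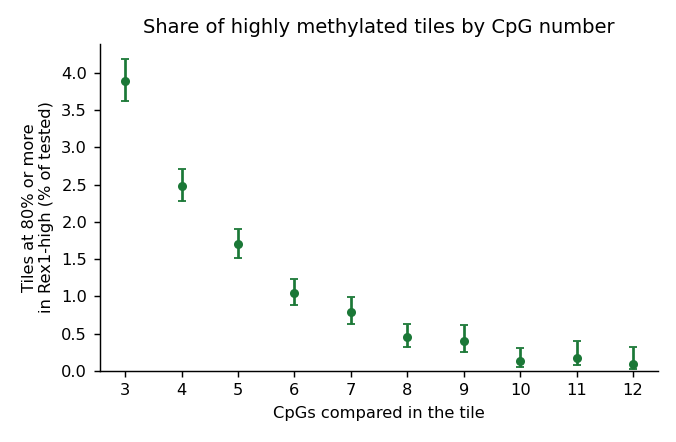
Share of tested autosomal tiles at 80% or more in *Rex1*-high (%) by the number of CpGs compared in the tile, with 95% Wilson intervals for counting error. The share drops from 3.89% at 3 CpGs to 0.0885% at 12, and no tile above 12 CpGs reached 80%.

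Within the class of 3 to 4 CpGs, the measured CpGs were also spread more thinly than in other tiles. Among tiles of 3 to 4 CpGs, the median spacing of measured CpGs was 107 bp in highly methylated tiles, 72.6 bp in tiles of 70% to 80%, 49.0 bp in tiles of 60% to 70% and 46.7 bp in all. The number of CpGs listed in either library at any depth was 6 in each of these 4 groups. Depth per CpG was somewhat lower, at 24.8 calls in *Rex1*-high and 20.8 in *Rex1*-low, against 28.3 and 22.3 in all tiles of 3 to 4 CpGs. Among tiles of 5 to 9 CpGs, the median spacing was 126 bp in highly methylated tiles, under the 131 bp in tiles of 70% to 80%. It was 103 bp in tiles of 60% to 70% and 74.5 bp in all tiles of 5 to 9 CpGs.

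Within the highly methylated tiles the CpGs differed from each other. In *Rex1*-high, 61.5% of the 7353 CpGs in such tiles of 3 to 9 CpGs were at 80% or more, 38.5% were between 20% and 80%, and 0 were at 20% or less. CpGs at exactly 100% made up 17.0%. In *Rex1*-low, 91.4% of the same CpGs were at 80% or more, 40.5% were at exactly 100% and 4 (0.0544%) were at 20% or less. In tiles of 70% to 80% with 3 to 9 CpGs, these *Rex1*-low shares were 87.5%, 35.1% and 0.159%. The SD over the CpGs of a highly methylated tile had a median of 12.5 points in *Rex1*-high and 6.90 points in *Rex1*-low. It was 14.7 and 8.20 points in tiles of 70% to 80%, and 21.9 and 14.1 points over all tested tiles. A tile with a high mean can have little spread, so the *Rex1*-high value follows partly from the rule, and the *Rex1*-low value partly from the high level there. The lack of CpGs at 20% or less in *Rex1*-high also follows largely from the rule, because such a CpG lowers the mean of a tile with few CpGs.

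Some CpGs carried calls of a kind that moved with high levels. A CpG can have 2 rows of calls, for which no strand was named. CpGs were set apart whose depth was within 1.5 times that of the nearest listed CpG on each side, both within 200 bp, and these are called CpGs of like depth. In tiles under 20% in *Rex1*-high, such CpGs had a mean level of 2.77% in that library, while the other CpGs of the same tiles had 30.5%. Where the latter had 2 rows of 5 or more calls, the upper row averaged 51.2% and the lower row 15.6%. In *Rex1*-low the same comparison in these tiles gave 3.99% and 27.2%.

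The same contrast was present, though smaller, in the highly methylated tiles. Their CpGs of like depth had a mean of 76.9% in *Rex1*-high and made up 21.4% of their CpGs, while the other CpGs had a mean of 84.5%. For tiles of 60% to 70% these means were 52.3% and 70.3%, with 31.2% of CpGs of like depth. In 67.2% of the remaining CpGs with 2 rows, the upper row of a highly methylated tile was at 95% or more in *Rex1*-high, against 21.9% at CpGs of like depth. In *Rex1*-low the means of the highly methylated tiles were closer, at 90.2% and 92.9%.

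A CpG of like depth in both libraries was present in 513 of the 1780 tiles. At these CpGs the mean level was 77.8% in *Rex1*-high and 89.9% in *Rex1*-low, and 210 of the 513 tiles (40.9%) were at 80% or more there in *Rex1*-high, beside 6.23% of tiles of 70% to 80% and 1.11% of tiles of 60% to 70%. These CpGs also entered the tile level that defined the classes, so the shares are a description. Tiles of 70% to 80% had 64.0% and 87.3% at such CpGs, and tiles of 60% to 70% had 52.0% and 83.7%. Tiles chosen and measured on CpGs of like depth alone numbered 27, with a *Rex1*-low median of 93.7% and a median difference of 8.62 points. CpGs of like depth must also have a listed CpG within 200 bp on each side, so depth and spacing are not separated here. The part that either plays in the choice of the 1780 tiles was not tested beyond these values.

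**Figure D4:**
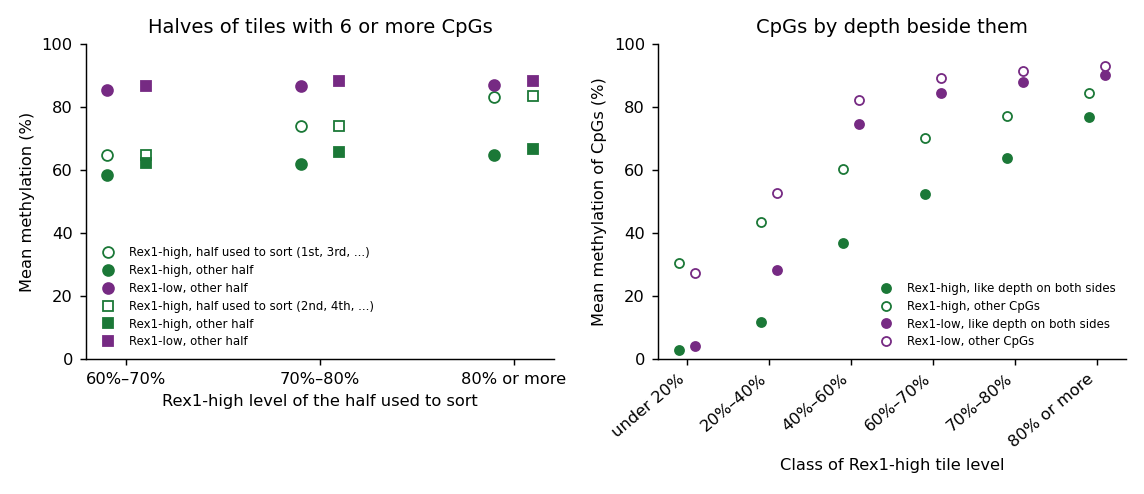
Left, mean methylation (%) of tiles with 6 or more CpGs, sorted by the *Rex1*-high level on alternate CpGs (open symbols) and measured on the CpGs between them (filled; circles, sorted on odd CpGs; squares, on even CpGs). Tiles sorted at 83.2% and 83.5% have 64.9% and 66.6% in *Rex1*-high on the CpGs not used. Right, mean level of CpGs of like depth on both sides (filled) and of other CpGs (open) by class of *Rex1*-high tile level; the former are lower in each class and library, with 76.9% against 84.5% in *Rex1*-high at 80% or more.

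Highly methylated tiles were scattered singly over the autosomes. Of the 1780, 1760 had no highly methylated tile beside them and 20 formed 10 pairs, with no longer run. Consecutive highly methylated tiles on a chromosome lay a median of 677.5 kb apart (quartiles 232.5 and 1595 kb), and 36 of 1761 such distances were within 10 kb. Since only 683 of the 1780 had a tested tile next to them, most could not form a pair in these data. Among the 818 tested tiles adjoining a highly methylated tile, 20 (2.44%, 95% Wilson interval 1.59% to 3.75%) were highly methylated themselves, against 1.11% of the tiles adjoining any tested tile. The share beside tiles of 70% to 80% was 2.23% (1.91% to 2.61%), which lies within the interval, and beside tiles of 60% to 70% it was 1.69% (1.51% to 1.90%). For tiles of 3 to 4 CpGs the share was 1.97% beside highly methylated tiles (11 of 557). It was 1.88% beside tiles of 70% to 80% and 1.22% beside all. For tiles of 5 to 9 CpGs these shares were 3.15% (8 of 254), 2.49% and 1.39%. In both CpG classes, the 95% Wilson interval beside highly methylated tiles included the share beside tiles of 70% to 80%. It included the share beside all at 3 to 4 CpGs, but not at 5 to 9.

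The 5 pairs with the most CpGs were on chromosome 3 at 102037501 to 102042500 (16 CpGs), chromosome 16 at 89992501 to 89997500 (14), chromosome 2 at 172890001 to 172895000 (11), chromosome 5 at 20220001 to 20225000 (11) and chromosome 1 at 166912501 to 166917500 (10). In the pair of chromosome 3, the tiles were at 84.2% and 84.8% in *Rex1*-high and at 88.8% and 93.7% in *Rex1*-low. In the pair of chromosome 5, they were at 81.8% and 80.2% in *Rex1*-high and at 98.2% and 95.5% in *Rex1*-low. All 10 tiles of these pairs had from 54 to 276 calls in *Rex1*-high, so that each level has counting error of several points.

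The surroundings of the highly methylated tiles stood slightly above the average, at a level far under their own. Tiles of 3 to 9 CpGs that adjoined a highly methylated tile had a median of 63.2% in *Rex1*-high and 88.2% in *Rex1*-low. Beside tiles of 70% to 80% these medians were 62.2% and 87.7%, and beside all tiles of 3 to 9 CpGs they were 59.3% and 86%. Within 25 kb on either side, the mean level of the flanking tiles had a median of 60.5% in *Rex1*-high around highly methylated tiles (quartiles 55.5% and 64.7%) and 58.0% around all (52.5% and 62.7%). In *Rex1*-low it was 85.1% and 83%. Within 500 kb the *Rex1*-high medians were 58.4% and 57.8%. Only tiles of 3 to 9 CpGs with 3 or more tiles in their flanks entered these medians. At 25 kb they were 53007 tiles, 985 of them highly methylated, and at 500 kb they were 89604 and 1767.

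The share of highly methylated tiles followed this level around them. The 53007 tiles of 3 to 9 CpGs with 3 or more tiles in their flanks of 25 kb were divided into 10 groups of equal size. The groups followed the mean *Rex1*-high level of these flanks. In the lowest group, 0.905% (95% Wilson interval 0.684% to 1.20%) were highly methylated, and in the highest group 3.13% (2.70% to 3.64%). The same held at a fixed CpG number, from 1.69% to 4.87% for tiles of 3 to 4 CpGs and from 0.354% to 1.88% for tiles of 5 to 9 CpGs. With flanks of 500 kb, over a larger set of 89604 tiles, the shares ran from 1.32% (1.10% to 1.57%) to 2.73% (2.42% to 3.09%). The highly methylated tiles of these groups hardly differed in *Rex1*-low, with medians of 92.9% in the lowest and 93.2% in the highest group by flanks of 25 kb.

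**Figure D5:**
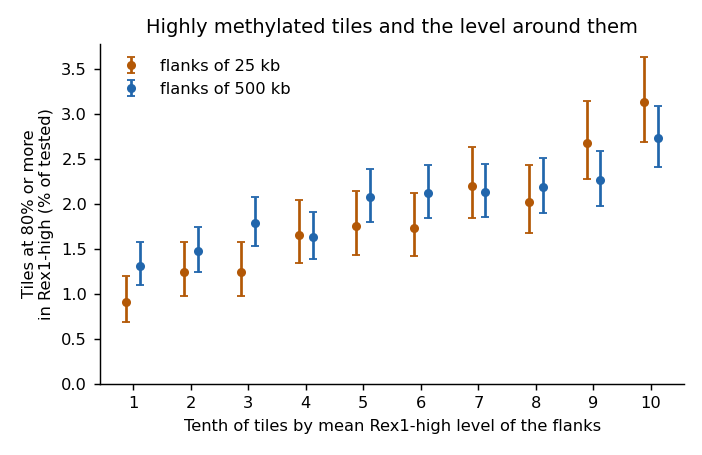
Share of tiles of 3 to 9 CpGs at 80% or more in *Rex1*-high (%), in 10 equal groups of tiles by the mean *Rex1*-high level of the other tiles within 25 kb (orange) or 500 kb (blue) on either side; bars are 95% Wilson intervals for counting error. The share is 0.905% in the lowest and 3.13% in the highest group for flanks of 25 kb, and 1.32% and 2.73% for 500 kb. Only tiles with 3 or more tiles in the flank are included, 53007 for 25 kb and 89604 for 500 kb.

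Every autosome held such tiles, from 45 on chromosome 19 to 146 on chromosome 1. The share of tested tiles ran from 1.16% (95% Wilson interval 0.945% to 1.43%) on chromosome 7 to 1.97% (1.68% to 2.32%) on chromosome 1. Among tiles of 3 to 9 CpGs the range was 1.66% to 2.53%, on the same chromosomes. The median *Rex1*-low level of the highly methylated tiles was between 92.1% and 95.5% on the 19 autosomes, and the median difference between 9.18 and 11.6 points. Distance to the last listed CpG of a chromosome gave no steady order, with 1.79% of tiles of 3 to 9 CpGs within 1 Mb of it, 2.41% from 5 to 10 Mb and 1.99% beyond 50 Mb.

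In windows of 1 Mb with 20 or more tested tiles, 691 of 1648 (41.9%) had no highly methylated tile, 533 had 1, 256 had 2 and 168 had 3 or more. The most in one window was 7 of 67 tested tiles (10.4%), on chromosome 6 from 117000001 to 118000000. The largest share was 3 of 21 (14.3%), on the same chromosome from 60000001 to 61000000, with a 95% Wilson interval of 4.98% to 34.6%. The other windows among the 5 largest shares held 3 of 24 on chromosome 13 from 102000001, 3 of 27 on chromosome 12 from 30000001 and 3 of 29 on chromosome 11 from 16000001. As the first of many windows, all 5 are extremes of sparse counts.

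The 12 tiles with 10 or more CpGs were the most fully measured, each with 100 or more calls in both libraries. *Rex1*-low was higher in all 12, beside 96.7% of all tested tiles, and the *Rex1*-high values that chose the tiles enter this count. The largest difference was on chromosome 8 (117060001 to 117062500), from 80% to 96.3% over 11 CpGs. Its calls were methylated in 211 of 278 cases in *Rex1*-high (95% Wilson interval 70.5% to 80.6%) and in 195 of 208 in *Rex1*-low (89.6% to 96.3%). The 11 CpGs ran from 48.7% to 100% in *Rex1*-high and from 86.6% to 100% in *Rex1*-low, so the low CpGs of the first library were high in the second. Chromosome 13 followed with a difference of 14.8 points (52487501 to 52490000) and one of 13.1 points (50907501 to 50910000). Chromosome 4 had one of 14.1 points (11107501 to 11110000), and chromosome 1 one of 11.6 points (182097501 to 182100000).

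The tile at 50907501 to 50910000 of chromosome 13 was also the deepest of the 45 tiles whose lower bound reached 80% in both libraries. Its 10 CpGs were at 75.9% to 94.9% in *Rex1*-high, with 296 of 345 calls methylated (81.7% to 89.1%). In *Rex1*-low they were at 90% to 100%, with 194 of 197 calls methylated (95.6% to 99.5%). The tiles with the most CpGs, 12 each, were at 102037501 to 102040000 of chromosome 3 and at 46810001 to 46812500 of chromosome 4. The former was at 84.2% and 88.8%, with overlapping intervals of 76.7% to 86.8% and 81.8% to 91.6%. The latter was at 81.9% and 91.0%.

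The 9 tiles that were lower by 10 or more points in *Rex1*-low had 3 or 4 CpGs each, and are singled out after their values were seen. The largest difference was at 3192501 to 3195000 of chromosome 5, from 81.4% to 47.7%, with 104 of 129 calls methylated in *Rex1*-high (95% Wilson interval 73.0% to 86.5%) and 42 of 87 in *Rex1*-low (38.1% to 58.6%). This was the tile among the 9 whose intervals were apart. It rested on 3 closely spaced CpGs. The CpG at 3193813 was at 74.7% in *Rex1*-high and 83.1% in *Rex1*-low, that at 3193815 was at 77.8% and 40%, and that at 3193829 was at 91.7% and 20%. Thus 1 of its CpGs went the other way. In the other 8 tiles the intervals overlapped, and the differences of the mean over CpGs, *Rex1*-low minus *Rex1*-high, ran from -21.2 to -10.0 points. With calls pooled over a tile, 4 of these 8 were higher in *Rex1*-low. The tile with the highest *Rex1*-high level, 96.8% at 140737501 to 140740000 of chromosome 6, was among them, at 83.6% in *Rex1*-low on 51 calls.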

How the data were processed

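RRBS was done on 1 library of sorted *Rex1*-high and 1 of sorted *Rex1*-low ESCs. According to the submitters' processing notes and methods, reads were aligned with Bismark 0.7 to mm9 and processed in Galaxy. Trimming and the handling of strands are not given in the sources used here. The authors deposited methylated and all calls per row, with a score of 1000 times their ratio, which was not used. Rows of 1 call are present in the deposited values.

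Here rows of at least 5 calls were kept, fractions of the rows of a CpG were averaged, and CpGs kept in both libraries were averaged over tiles of 2500 bp. Pooled calls gave 95% Wilson intervals. The steps were tested on simulated data. The groups were taken from the sample titles. No test was run, because the *Rex1*-high level chose the tiles and each state has 1 library. Named tiles were the 5 largest differences among tiles of 10 or more CpGs and 100 or more calls, the 5 with most CpGs, the 5 longest runs, the 5 windows of 1 Mb with the largest share, and 3 tiles on each side of the limit. The tiles and rules were chosen with earlier results of these data known. CpGs of like depth were set apart after the data were examined. Python 3.11.15, NumPy 2.4.6, pandas 2.3.3 and matplotlib 3.10.9 were used.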

Additional observations from a re-analysis of the deposited data

Results flagged for a closer look

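Calls on mitochondrial DNA, which enter no comparison above, included rows of high methylation in both libraries. Among mitochondrial rows of 5 or more calls, 16 of 100 (16.0%, 95% Wilson interval 10.1% to 24.4%) were at 80% or more in *Rex1*-high and 11 of 70 (15.7%, 9.01% to 26.0%) in *Rex1*-low, beside medians over rows of 0.996% and 0.783%. In *Rex1*-high, the rows of the CpG at position 2431 were at 98.6% (4135 calls) and 5.68% (7623 calls), and those at 2521 were at 98.7% (8187 calls) and 5.69% (4133 calls). At the 3 deeply read CpGs between these positions, all 6 rows were between 0.711% and 1.01%. In *Rex1*-low, the rows at position 3402 were at 98.7% and 8.64%, while those at 3396 were at 0.755% and 0.749%.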

How the results depend on the processing

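Of 175 values recomputed under 18 alternatives and 4 chosen after seeing the data, 108 stayed within their limits, which were a factor of 1.5 for counts, the interval of a share, 5.43 points for the *Rex1*-low level and 9.59 points for the difference. The last 2 are counting errors of a single tile and are wide for a median over many tiles, so staying within them does not show stability. The median *Rex1*-low level ran from 88.2% to 94.9% over the 22, and the median difference was positive under each. The median difference moved to 25 points with tiles chosen on odd CpGs and measured on even ones, and to 21.0 points the other way round. All tested tiles had 24.4 and 20.9 points on the same CpGs. For chosen tiles it was 16.9 points at a limit of 70% and 2.35 points at a limit of 90%. It was 5.24 points for a Wilson lower bound of 80%, against 10.2 points as reported. The first choice gave 6817 tiles, of which 6006 were higher and 31 lower by 10 or more points in *Rex1*-low, and 8.18% with a tested tile beside them had a chosen one there; the second gave 3717, 3102, 21 and 5.74%. In the same order, a median over CpGs gave 3644, 2112, 40 and 6.53%, a limit of 70% gave 15594, 13286, 23 and 22.8%, a limit of 90% gave 42, 0, 2 and 0%, a Wilson lower bound of 80% gave 47, 7, 2 and 0%, and CpGs of like depth alone gave 27, 12, 0 and 50%, the last being 2 of 4 tiles. At least 5 CpGs gave 560 tiles, with 292 higher and 0 lower, at least 10 CpGs gave 12, 5 and 0, at least 100 calls gave 349, 179 and 0, and no call minimum gave 4033, 1991 and 66. The number lower by 10 or more points was 5 with rows of 10 or more calls and 4 with pooled calls. The share with a chosen tile beside them was 5.07% with rows of 10 or more calls, 4.52% without CpGs of like depth and 4.71% without CpGs whose rows differed by 30 or more points. At 10 or more CpGs no tile had a tested tile beside it, so that share could not be given. The share of tested tiles, 1.47% as reported, was 5.63% and 3.07% with the choice on odd and even CpGs, 3.01% for a median over CpGs, 12.9% and 0.0347% for limits of 70% and 90%, 0.0388% for the lower bound and 0.0965% for CpGs of like depth. It was 0.679% at 5 and 0.0382% at 10 or more CpGs (with a median of 11 CpGs), 0.479% at 100 calls, 2.54% with no call minimum, 2.19% with rows of 10 or more calls, 1.20% with rows merged first, 1.22% with pooled calls and 1.29% for tiles of 1000 bp. It was 1.72% with the deeper library thinned at each CpG, 2.21% without CpGs of like depth, 1.64% without CpGs whose rows lay on opposite sides (80% or more and 20% or less) and 1.88% without those whose rows differed by 30 or more points. The cause of these moves was not tested, other than that fewer or other tiles were compared. No paired analysis was possible because each state has 1 library. In 97.4% of the tiles the *Rex1*-high interval of pooled calls reaches under 80%. This includes 724 tiles whose pooled level itself is under 80%.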
